A study of Mus musculus with 8 samples.

Results

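The 7 genes described here are outputs of the circadian clock with roles in liver metabolism and growth: Alas1, Nampt, Por, Gys2, Lpin1, Usp2 and Wee1. They are 7 of 21887 protein-coding genes on the nuclear chromosomes. They were listed by name and chosen by values measured in these data: the number of sequenced ends over the gene and 2.5 kb either side in each experiment, and their contacts at 8 kb to 1 Mb, of which Usp2 and Por had several. Those values are therefore given as a description, with no test. RNA polymerase II (Pol II) was measured by ChIA-PET, in which crosslinked chromatin is pulled down with a Pol II antibody, DNA ends held in a complex are joined through a linker, and a short tag is read from each side. The joined tags are a PET, and each PET has 2 ends with a genome position.

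The livers came from wild-type C57BL/6 mice of 3 to 6 months, kept in 12 h of light and 12 h of dark with free access to food and water. They were collected at ZT06, the middle of the day, or ZT18, the middle of the night, where ZT counts hours from lights on. Chromatin of 3 to 7 livers was combined before the pull-down with antibody 8WG16, so a library is a mixture of animals. Experiment 1 (JM08, 2 libraries at each time) and experiment 3 (JM12, 1 library at each time) were crosslinked with 1.5 mM EGS and 1% formaldehyde, and experiment 2 (JM11, 1 library at each time) with 1% formaldehyde only. The deposited table holds 1 pool of PETs for each experiment and names neither library nor time in any column. Day and night could therefore not be compared, the experiments have no replicates within them, and crosslinking cannot be told apart from every other difference between experiments.

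The circadian clock is a feedback loop in which CLOCK and BMAL1 bind E-boxes and drive their own repressors, the PER and CRY proteins. Other arms act through ROR and REV-ERB proteins at RORE sites and through DBP, TEF, HLF and NFIL3 at D-boxes. In liver, these factors set a daily rhythm in genes for heme, NAD, glycogen and lipid metabolism, so that enzyme supply follows feeding and fasting. Pol II at a gene's start and along its body is a measure of its transcription, although the antibody 8WG16 favours forms of Pol II with little phosphorylation of its tail, which are found mostly near starts.

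Promoters are shown for the members with an entry in the RefSeq promoter table. Its assembly, GRCm38.p6, corresponds to the mm10 build of the deposited positions. They are shown because PET ends of Alas1, Nampt, Por and Usp2 gathered around the tabled start. The densest 1 kb of Alas1 lay downstream of its start, outside the run printed here. Alas1, Nampt, Por, Usp2 and Lpin1 had an entry, and Wee1 and Gys2 did not. Each run is the 250 bases before the start, from 5′ to 3′ on the gene's strand, with GC boxes (GGGCGG or its complement CCGCCC) and the core letters of a RORE (AGGTCA or its complement TGACCT) in capitals.
Alas1, minus strand, chr9:106247955-106248204: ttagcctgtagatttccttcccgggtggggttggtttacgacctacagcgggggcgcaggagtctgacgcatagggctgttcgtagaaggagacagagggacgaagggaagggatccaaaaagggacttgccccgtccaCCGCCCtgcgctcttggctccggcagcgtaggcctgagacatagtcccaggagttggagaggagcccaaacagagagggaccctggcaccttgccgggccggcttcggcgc
Nampt, plus strand, chr12:32820085-32820334: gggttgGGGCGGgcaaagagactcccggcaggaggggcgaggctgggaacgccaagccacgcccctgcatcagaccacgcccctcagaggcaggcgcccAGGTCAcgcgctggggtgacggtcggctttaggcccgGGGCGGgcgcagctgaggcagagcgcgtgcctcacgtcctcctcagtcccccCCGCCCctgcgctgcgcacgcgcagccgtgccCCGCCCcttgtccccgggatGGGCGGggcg
Por, plus strand, chr5:135688895-135689144: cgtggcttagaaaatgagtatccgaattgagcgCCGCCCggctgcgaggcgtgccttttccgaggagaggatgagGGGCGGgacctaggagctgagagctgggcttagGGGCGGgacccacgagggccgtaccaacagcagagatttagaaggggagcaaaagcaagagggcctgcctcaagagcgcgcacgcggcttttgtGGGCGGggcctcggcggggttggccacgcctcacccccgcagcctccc
Usp2, plus strand, chr9:44084670-44084919: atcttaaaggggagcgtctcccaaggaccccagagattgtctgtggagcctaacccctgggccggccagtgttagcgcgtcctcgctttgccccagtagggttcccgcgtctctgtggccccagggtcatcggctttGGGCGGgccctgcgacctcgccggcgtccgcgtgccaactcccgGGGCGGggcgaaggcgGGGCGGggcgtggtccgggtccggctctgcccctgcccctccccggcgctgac
Lpin1, minus strand, chr12:16610967-16611216: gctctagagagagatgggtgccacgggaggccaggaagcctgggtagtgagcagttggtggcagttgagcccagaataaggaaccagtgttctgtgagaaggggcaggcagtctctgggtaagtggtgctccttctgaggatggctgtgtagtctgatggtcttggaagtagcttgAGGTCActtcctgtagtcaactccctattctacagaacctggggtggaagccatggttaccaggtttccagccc

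The promoter of Nampt held 5 GC boxes, that of Por 4, that of Usp2 3, that of Alas1 1 and that of Lpin1 0. A GC box was present in 4 of the 5, against 32.7% of all 32851 promoters in the table. GC content was 75.6% for Nampt, 71.6% for Usp2, 65.6% for Por, 62.4% for Alas1 and 54.8% for Lpin1, and the median promoter had 52.4%. The RORE core stood 74 bases before the start of Lpin1 and 151 bases before that of Nampt, and 14.0% of all promoters held it. None of the 5 windows held an E-box (CACGTG, 6.02% of all promoters), an E′-box (CACGTT, 3.85%), a D-box (TTATGTAA, 0.819%, or TTACGTAA, 0.113%) or TATAAA (12.4%), on either strand. CACGTG and CACGTT differ only in the last letter, and TTATGTAA and TTACGTAA in 1 middle letter. These are matches of letters in the 250 bases before 1 annotated start, not sites of binding.

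The level of a gene is given as its PET ends relative to the nuclear mean, which is the number of ends over its window divided by the number that the mean density over the nuclear chromosomes would place there. A value of 1 is the nuclear mean. The 3 experiments held 474466, 1438852 and 837971 PETs with both ends on nuclear chromosomes. Intervals are exact Poisson 95% intervals. They cover counting error only, and since both ends of a short PET can fall in 1 gene, they are somewhat too narrow.

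Alas1, the rate-limiting enzyme of heme synthesis in liver, had by far the most Pol II signal of the group. The gene is at chr9:106233455-106247954 on the minus strand. Its window held 358, 116 and 188 ends in experiments 1 to 3. Relative to the nuclear mean this was 51.5 (46.3 to 57.1), 5.50 (4.55 to 6.60) and 15.3 (13.2 to 17.7). Its interval lay above those of the other members in each experiment. Of all protein-coding genes, Alas1 and those with a value at least as high numbered 23, 69 and 18 in the 3 experiments. The ratio of experiment 1 to experiment 2 was 9.36 (7.57 to 11.6) and that of experiment 1 to experiment 3 was 3.36 (2.81 to 4.03), while the median protein-coding gene had ratios of 1.16 and 0.981. Alas1 thus stood highest in both experiments with EGS and, between these, higher in the first. In experiment 1, 225 of its 262 PETs had a read-1 position held by no other PET, and with such PETs only the value was 55.6.

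Nampt makes nicotinamide mononucleotide, the limiting step of NAD recycling from nicotinamide. The gene is at chr12:32820335-32853369 on the plus strand. Its ends numbered 47, 71 and 47 in experiments 1 to 3, or 3.47 (2.55 to 4.61), 1.73 (1.35 to 2.18) and 1.96 (1.44 to 2.61) relative to the nuclear mean. All 3 intervals lay above 1. The 50 kb on either side held no protein-coding gene in full or part, and Nampt was 5.62 (3.32 to 9.79), 1.76 (1.29 to 2.40) and 2.17 (1.44 to 3.25) times as dense as that surrounding DNA.

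Por encodes the reductase that passes electrons from NADPH to the microsomal cytochrome P450 enzymes. The gene is at chr5:135670040-135735326 on the plus strand. It had 107, 79 and 126 ends, or 4.27 (3.50 to 5.16), 1.04 (0.823 to 1.30) and 2.85 (2.37 to 3.39) relative to the nuclear mean. The value in experiment 2 was at the nuclear mean, and the other experiments were 4.11 (3.04 to 5.57) and 2.74 (2.05 to 3.68) times as high.

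Gys2 is the liver form of glycogen synthase. The gene is at chr6:142422612-142473130. It had 69 ends in experiment 1, or 3.49 (2.71 to 4.41) relative to the nuclear mean, but 60 and 36 in experiments 2 and 3, or 0.999 (0.763 to 1.29) and 1.03 (0.721 to 1.43). Gys2 was thus above the nuclear mean beyond its interval only in experiment 1, and the EGS experiments differed by 3.39 times (2.23 to 5.22). Beside the 50 kb on either side it was 2.49 (1.70 to 3.65), 0.735 (0.535 to 0.999) and 0.831 (0.544 to 1.25) times as dense in the 3 experiments.

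Lpin1 encodes a phosphatidate phosphatase that makes diacylglycerol for triglyceride synthesis and also acts with nuclear receptors. It is the longest of the members, at chr12:16535669-16653903 on the minus strand. It had 81, 168 and 135 ends, or 1.84 (1.46 to 2.29), 1.26 (1.08 to 1.47) and 1.74 (1.46 to 2.06) relative to the nuclear mean. Those values lay above 1 by small margins in all 3 experiments, over a window of 123.235 kb.

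Usp2 is a ubiquitin-specific protease that acts on clock proteins, among other substrates. The gene is at chr9:44067021-44095627 on the plus strand. It had 31, 52 and 63 ends, or 2.59 (1.76 to 3.67), 1.43 (1.07 to 1.88) and 2.98 (2.29 to 3.81) relative to the nuclear mean. Beside the 50 kb on either side it was 2.31 (1.39 to 3.78), 2.06 (1.42 to 2.98) and 2.31 (1.64 to 3.26) times as dense in the 3 experiments. The lncRNA gene Gm39325 overlaps its window and shared 72 of its 146 ends, or 49.3%. The table gives no strand for a PET, so ends of the overlapping genes cannot be told apart.

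Wee1 encodes the kinase that holds back entry into mitosis. The gene is at chr7:110122059-110143299. It had the fewest ends of the group, 20, 34 and 25, or 2.14 (1.31 to 3.30), 1.20 (0.830 to 1.67) and 1.51 (0.979 to 2.23) relative to the nuclear mean. Only the first of these intervals lay above 1.

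**Figure D1:**
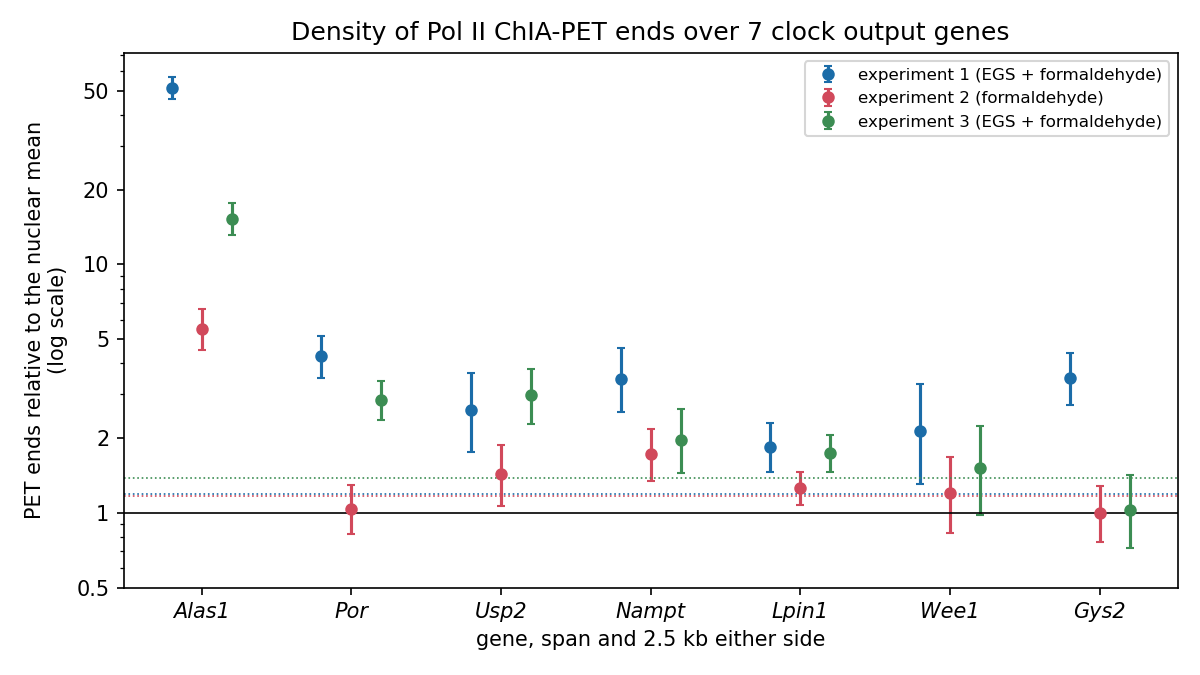
PET ends over each gene and 2.5 kb either side, relative to the nuclear mean (log scale), in the 3 experiments, with exact Poisson 95% intervals as bars. Alas1 stands at 51.5, 5.50 and 15.3, and the other 6 genes lie between 0.999 and 4.27.

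As a group, 6 of the 7 genes were above the nuclear mean in every experiment, against 45.0% of all protein-coding genes, and Gys2 was the exception at 0.999 in experiment 2. Por was close to 1 in that experiment too, and the count rests on these small margins. With 5 kb either side it was again 6, but the exception was Por at 0.970 and not Gys2 at 1.02. All 7 were above the mean with PETs of unshared read-1 position only, and 5, without Por and Gys2, were above the median gene. The list was made with these counts known, and nothing is read from that share. The interval lay above 1 for 7 genes in experiment 1, 4 in experiment 2 and 5 in experiment 3, against 32.6%, 29.3% and 45.3% of all genes. The median of the 7 was 3.47, 1.26 and 1.96, beside 1.19, 1.17 and 1.39 over all protein-coding genes. The value was lowest in experiment 2 for 7 of 7 genes, against 46.4% of all genes. The ratio of experiment 3 to experiment 2 had an interval covering 1 for Nampt (1.14, 0.769 to 1.67), Wee1 (1.26, 0.722 to 2.18) and Gys2 (1.03, 0.662 to 1.58). The median protein-coding gene had a ratio of 1.25. That value lay within the intervals of Nampt, Wee1, Gys2 and Lpin1 (1.38, 1.09 to 1.74) and below those of Usp2, Por and Alas1. With PETs of unshared read-1 position only, the value was lowest in experiment 2 for 6 genes, without Nampt, and relative to the median gene for 5, without Nampt and Gys2. Apart from Alas1, each gene's interval overlapped that of the next in order in every experiment. Overlap of separate intervals does not settle whether 2 values differ, and neighbouring genes among the other 6 were not compared directly.

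The deposited positions also show where along each gene the ends lay. Over the 2 kb centred on the annotated start, Alas1 held 133, 38 and 42 ends, or 186 (156 to 221), 17.6 (12.4 to 24.1) and 33.3 (24.0 to 45.1) relative to the nuclear mean. Por held 32, 20 and 34 ends, or 44.9, 9.24 and 27.0, and Nampt 22, 12 and 18 ends, or 30.8, 5.55 and 14.3. Usp2 held 11, 16 and 20 ends, or 15.4, 7.39 and 15.9. The median over 17492 genes with a tabled start was 2.80, 1.39 and 2.38. All 4 genes thus had starts denser than both their own window and the median start in each experiment, with the smallest contrast to its own window in Alas1 in experiment 3 (33.3 against 15.3). Lpin1 did not, with 1, 3 and 1 ends or 1.40, 1.39 and 0.794, at a start that is 1 of those the gene may use. Over the 5 starts together the values were 55.8 (48.3 to 64.1), 8.23 (6.61 to 10.1) and 18.3 (15.1 to 21.9). Much of this was Alas1, which gave 133 of the 199, 38 of the 89 and 42 of the 115 ends.

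The densest 1 kb of each window was then located, with the windows chosen after the values were seen. In Alas1 it was chr9:106246919-106247918, with 184 of 662 ends (27.8%), centred 311 bp from the nearer of its 2 tabled starts. In Por it was chr5:135688915-135689914, with 69 of 312 ends (22.1%), centred 270 bp from the tabled start but 19375 bp inside the lower boundary of the gene, so the ends gathered at an internal start and not at the outermost one. In Usp2 it was chr9:44084810-44085809, with 40 of 146 ends (27.4%), centred 390 bp from the tabled start and 18289 bp from the lower boundary. Both genes thus had their peak at a downstream start. Nampt peaked at chr12:32820007-32821006, 172 bp from its start, with 43 of 165 ends (26.1%).

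The remaining 3 genes had no peak at a tabled start, and their densest 1 kb held 12.1% to 20.3% of their ends. In Wee1 the densest 1 kb was chr7:110121687-110122686, 128 bp from the lower boundary, with 16 of 79 ends (20.3%). In Gys2 it was chr6:142472449-142473448, 181 bp from the upper boundary, with 20 of 165 ends (12.1%). Both are boundaries of the gene in the annotation, and the promoter table gave no start for either gene. In Lpin1 it was chr12:16588798-16589797, 21668 bp inside the gene from the tabled start, with 48 of 384 ends (12.5%). Those ends came from all 3 experiments, 20, 17 and 11, and stood at 56.1, 15.7 and 17.5 relative to the nuclear mean. The Lpin1 signal was thus focal within the gene, at a site that the table does not name as a start.

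**Figure D2:**
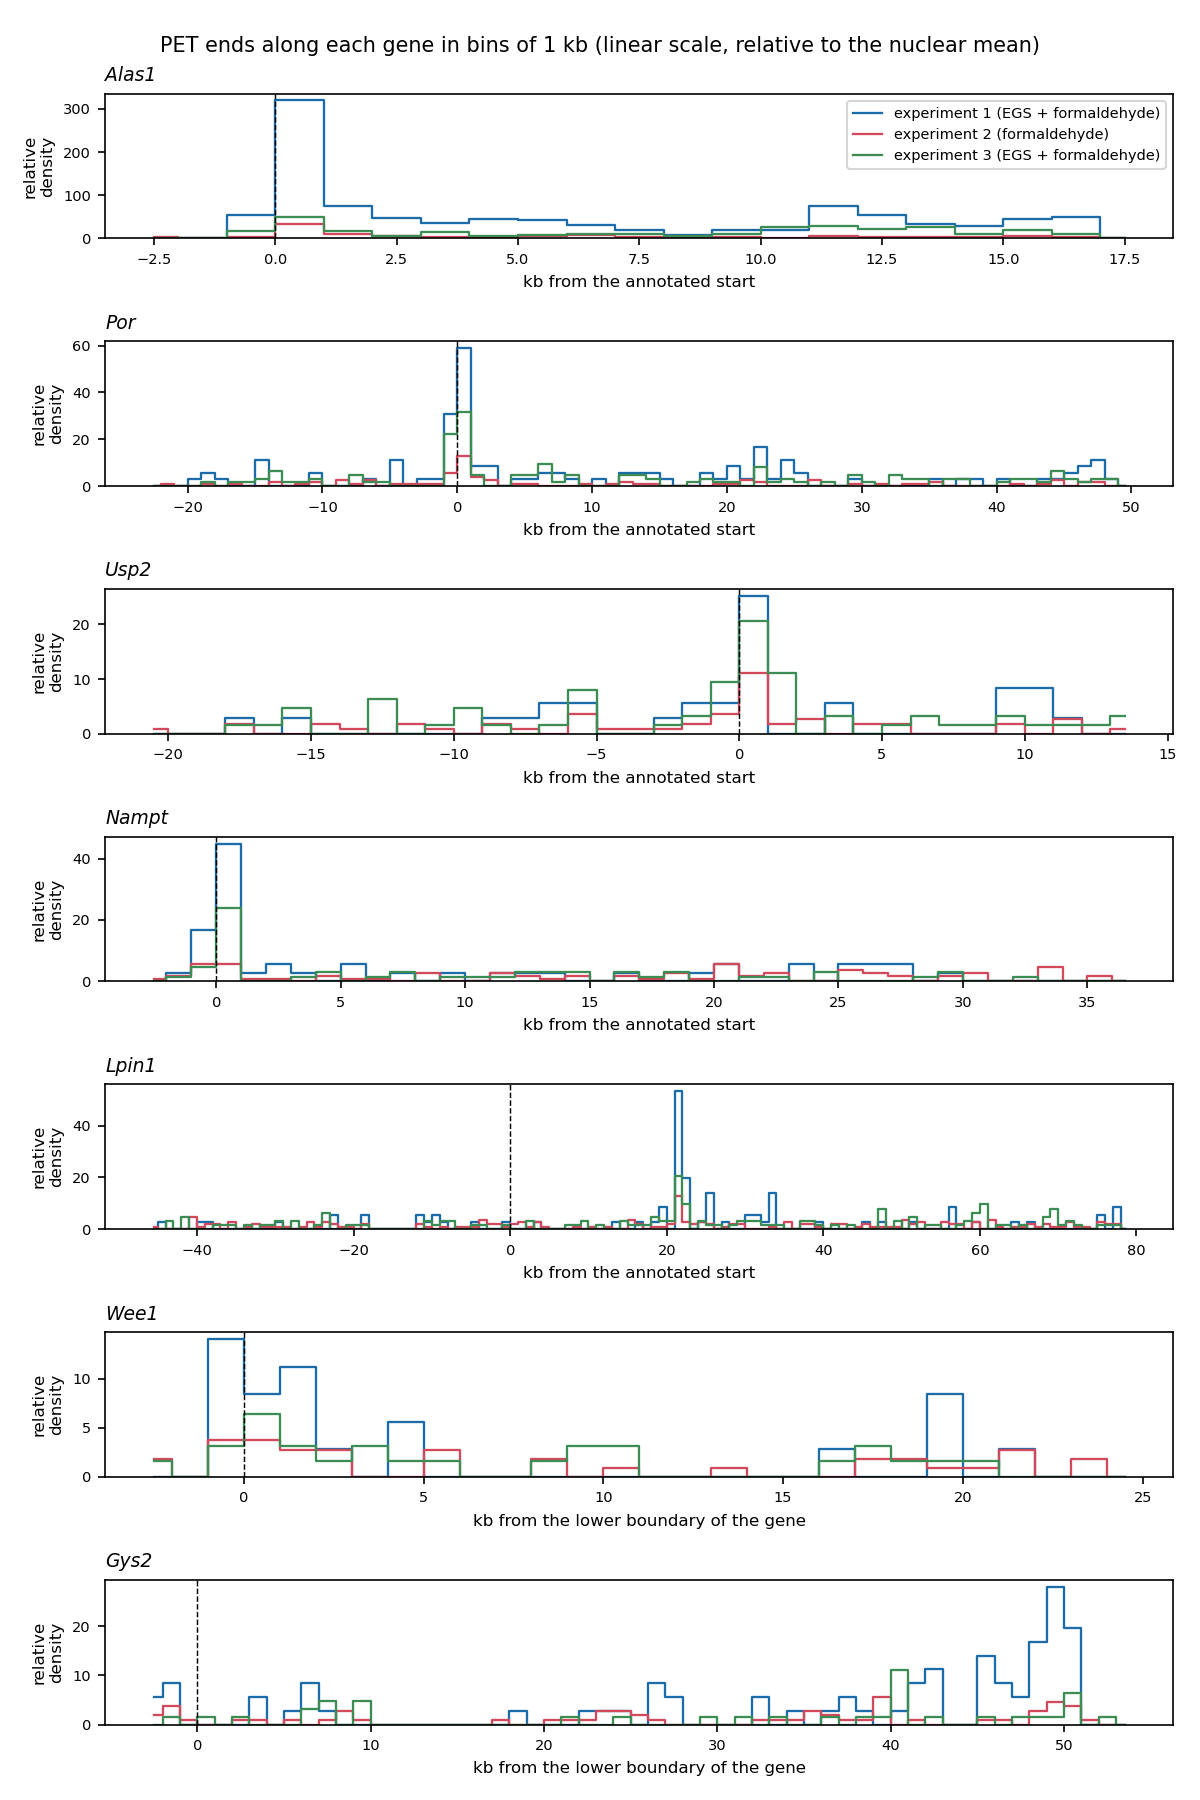
PET ends along each gene in bins of 1 kb, relative to the nuclear mean (linear scale, a scale of its own for each gene), with distance in kb from the tabled start or, for Wee1 and Gys2, from the lower boundary of the gene, and a line for each experiment. Ends of Alas1, Por, Usp2 and Nampt gather at 0, and those of Lpin1 gather 21668 bp inside the gene.

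A contact is a PET with 1 end in the window of a gene and the other end on the same chromosome, more than 8 kb and at most 1 Mb away. The 7 genes had 12 contacts, 2 in experiment 1, 2 in experiment 2 and 8 in experiment 3. Each contact rested on 1 PET. A single PET cannot be told apart from random joining of DNA ends, so the word joined below describes a PET only. At least 1 contact was seen for 4 of the 7 genes, against 22.3% of all protein-coding genes, and at least 3 for 3 of them, against 1.40%. At least 4 contacts were seen for 2 genes, Usp2 and Alas1, against 0.366% of all genes. Contacts numbered 6.27 per 1000 ends (3.24 to 11.0) for the 7 genes and 2.18 for all protein-coding genes. The genes were listed with these contacts known, so the difference is a description.

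Usp2 had 4 contacts, or 27.4 per 1000 ends (7.46 to 70.1). In experiment 3 it was joined to C1qtnf5 and Mfrp, 29.1 kb away (chr9, 44079197 to 44108266), by a PET that shared its read-1 position with 1 other PET. In experiment 1 it was joined over 227 kb to a point 41 bp from the boundary of Hinfp (44078914 to 44305675), which encodes a histone gene transcription factor. In experiment 3 the start region, 1000 bp from the start, was joined over 400 kb to Bcl9l (44085920 to 44485650), a cofactor of beta-catenin. The fourth PET, in experiment 3, ran 456 kb from a point 865 bp from the start to a point 13248 bp from Cxcr5 (44084055 to 44539692). The 4 far ends lay on 1 side of Usp2, and the closest of them were 54042 bp apart. The surroundings of the far ends at Hinfp and Bcl9l were 3.87 and 3.77 times the nuclear mean in PET ends of the 3 experiments, and those at C1qtnf5 and near Cxcr5 were 1.06 and 1.16 times.

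Por had 3 contacts, or 9.62 per 1000 ends (1.98 to 28.1), all in experiment 3 and all with the same linker on read 1. They joined it to its neighbour Tmem120a at 64.3 kb (chr5, 135678725 to 135743007), to Rhbdd2 at 65.8 kb on the other side (135701257 to 135635484), and to Prkrip1 at 486 kb (135702617 to 136189011). The near ends were 10420, 12112 and 13472 bp from the start, so none came from the peak of ends at the start. Their far ends had densities of 2.03, 1.26 and 1.16 times the nuclear mean.

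Alas1 had 4 contacts, or 6.04 per 1000 ends (1.65 to 15.5), over all 3 experiments. A PET of experiment 1 joined the start, 43 bp away, to a point 9.26 kb upstream (chr9, 106247911 to 106257172). A PET of experiment 3 joined the gene to the lncRNA gene Gm33564 at 20.9 kb (106244843 to 106265694), 13749 bp from Poc1a. The start, 47 bp away, was joined in experiment 3 over 120 kb to a point 998 bp from Dusp7 (106247907 to 106367562), which encodes a phosphatase of MAP kinases, and that far end was 5.13 times as dense as the nuclear mean. In experiment 2, a PET ran 943 kb to the kinase gene Nek11 (106236240 to 105293007). The first 2 far ends of Alas1 were 8522 bp apart, the closest pair of the 12 contacts. Lpin1 had 1 contact, in experiment 2, over 767 kb to Nol10 (chr12, 16608262 to 17375080), or 2.60 per 1000 ends (0.0659 to 14.5).

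Wee1, Nampt and Gys2 had 0 contacts among their 79, 165 and 165 ends. A count of 0 has an exact two-sided 95% Poisson limit of 3.69 contacts for each gene. Near the distance limits, a PET of experiment 1 joined ends 6.91 kb apart within Alas1, and PETs of experiment 2 ran 1430 kb from Usp2 to Dscaml1 and 1972 kb from Nampt to Hdac9. The Alas1 PET is short of the lower limit, and both others pass the upper one.

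**Figure D3:**
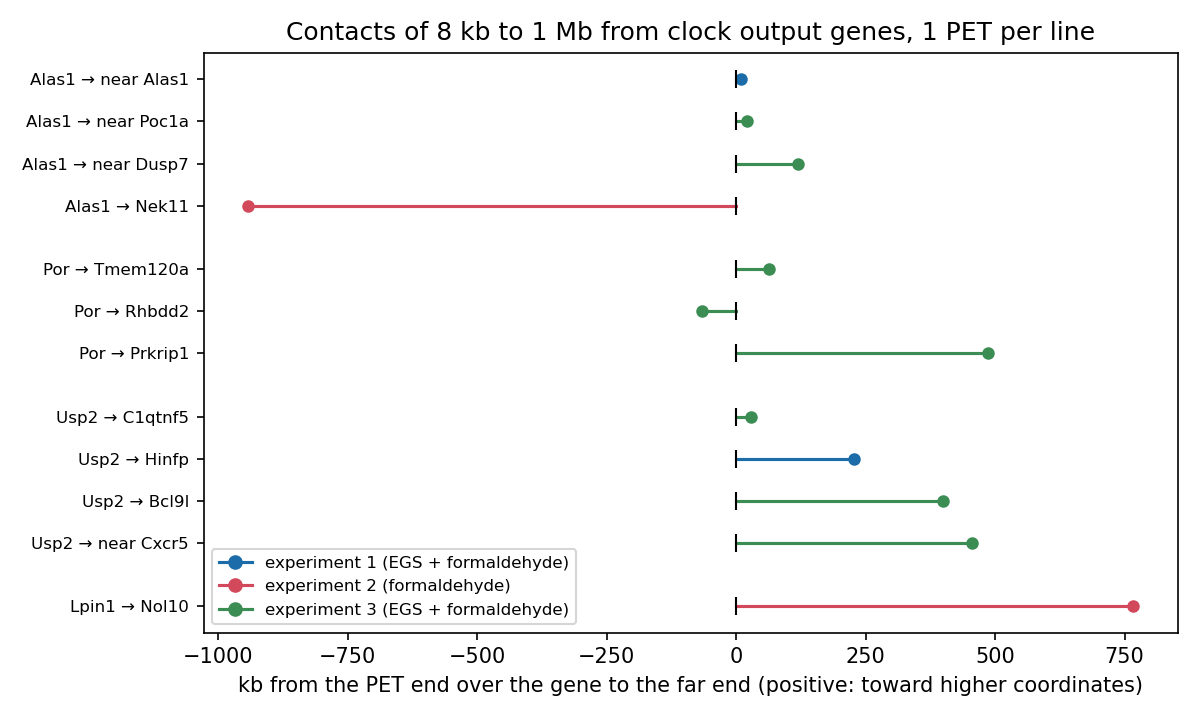
The 12 contacts of Usp2, Por, Alas1 and Lpin1, each line 1 PET from its end over the gene (0) to its far end in kb, positive toward higher coordinates, coloured by experiment. Of these, 8 belong to experiment 3, and the 4 contacts of Usp2 all run toward higher coordinates.

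Of the 12 far ends, 8 lay in a protein-coding gene, against 57.7% of the ends of all 6280 PETs of this distance, and 4 lay within 2.5 kb of a gene boundary, against 24.7%. Those shares are close to the background for so few PETs. The median distance was 173 kb for the 12 contacts and 107 kb for all PETs of the class. Near ends of 4 contacts lay within 1 kb of the tabled start. Contacts per 1000 ends were 2.81 (0.340 to 10.1), 3.45 (0.418 to 12.5) and 12.9 (5.57 to 25.4) for the 7 genes in experiments 1 to 3, beside 2.43, 0.981 and 3.85 over all genes. The rate was highest in experiment 3 both for the members and for all genes.

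PETs with ends at most 8 kb apart made up much of the signal over these genes in experiment 1 and less in the others. Of the ends over the 7 genes, 48.0% (43.3 to 52.6, exact Clopper-Pearson 95% interval), 19.8% (15.6 to 24.6) and 22.9% (18.6 to 27.6) belonged to such a PET in experiments 1 to 3, against 28.4%, 7.90% and 16.7% over all protein-coding genes. The share was above that of all genes for 7 of 7 members in experiments 1 and 2 and for 4 of 7 in experiment 3. Without Alas1, an alternative chosen after seeing the data, it was 42.3%, 19.2% and 17.1%, so in experiment 3 the other 6 genes together lay near the 16.7% of all genes. Alas1 had 53.6%, 22.4% and 36.2%. Por had 46.7%, 30.4% and 20.6%, Nampt 46.8%, 22.5% and 25.5%, and Usp2 51.6%, 19.2% and 22.2%. Lpin1 had 32.1%, 14.9% and 14.8%. In experiment 3 the share was 5.56% for Gys2 and 0% for Wee1, where 0 of 25 PETs were short. A short PET adds 2 ends to a gene, so this share moves with the density of PET ends. With each PET counted once, against the same expected ends, the members' median density was 2.65, 1.17 and 1.71 in experiments 1 to 3. It was 3.47, 1.26 and 1.96 with every end counted. The part of short PETs in the differences between experiments was not tested.

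**Figure D4:**
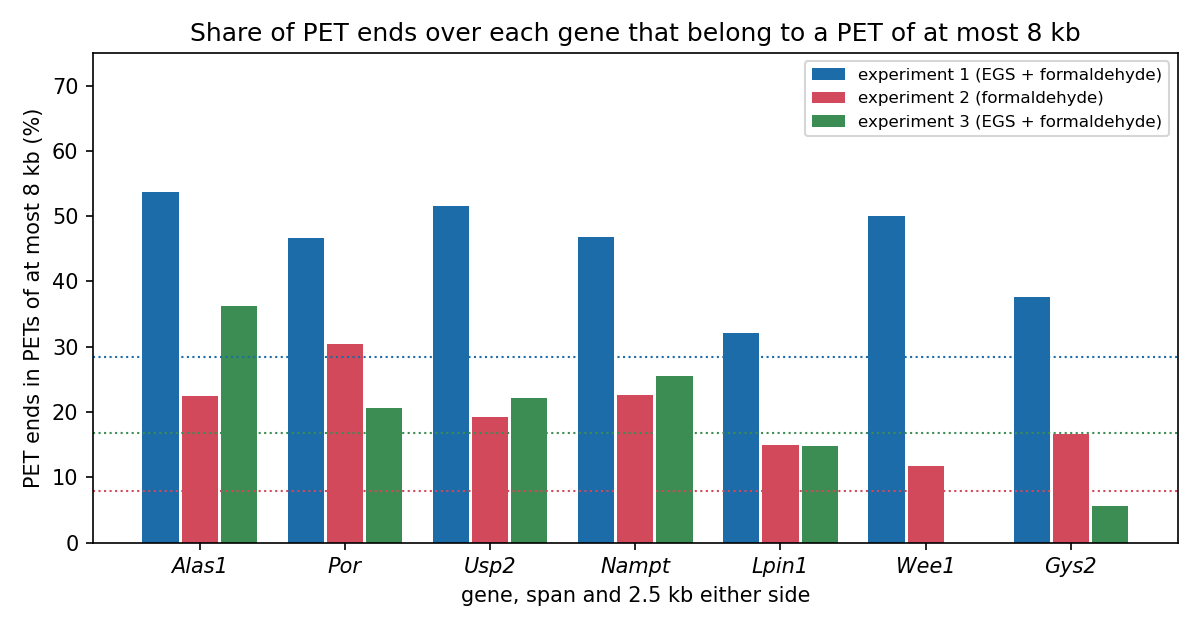
Share of the PET ends over each gene that belong to a PET of at most 8 kb, in percent, by experiment, with lines for all protein-coding genes. In experiment 1 every member lies above the 28.4% of all genes, and in experiment 3 Wee1 is at 0% and Gys2 at 5.56%.

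Each PET was assigned the linker of its read 1, which was 1 of 2, and the linker of read 2 was not used. No source used here says which library or time a linker marks, so the values are given without reading a time of day from them. The share of PETs with the TAAG linker was 59.1%, 77.1% and 52.4% in experiments 1 to 3. In 17 of 21 pairs of a gene and an experiment, the gene's 95% interval covered the share of its experiment. The same count was not made over all protein-coding genes, and nothing about the members is read from it. The 95% intervals count ends, and both ends of a PET have the same linker. They are therefore somewhat too narrow where both ends fall in 1 gene. Lpin1 was below the experiment's share in experiment 1, at 45.7% (34.6 to 57.1). In experiment 2, Por was at 65.8% (54.3 to 76.1), Alas1 at 64.7% (55.2 to 73.3) and Lpin1 at 66.7% (59.0 to 73.7), all below the experiment's share. In that experiment the linkers themselves differed in the share of PETs at most 8 kb apart, 10.9% with ATGT and 4.84% with TAAG, and over all protein-coding genes TAAG held 76.3% of the ends. In experiment 2 Alas1 stood at 8.49 relative to the nuclear mean with ATGT and at 4.61 with TAAG.

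**Figure D5:**
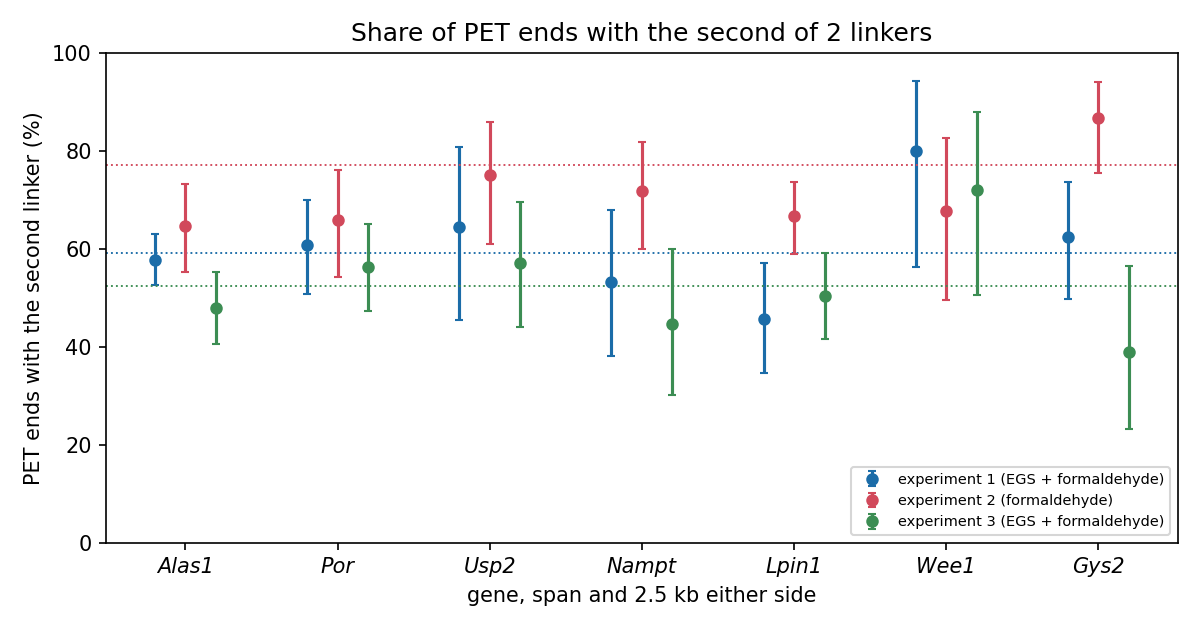
Share of the PET ends over each gene with the second linker (TAAG) on read 1 of their PET, in percent, by experiment. Bars are Clopper-Pearson 95% intervals, and lines mark the share of each experiment. The intervals of Lpin1 in experiment 1 and of Por, Alas1 and Lpin1 in experiment 2 lie below the line.

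Most PETs joined different chromosomes, 73.1%, 88.7% and 80.2% of all nuclear PETs. The partners of such PETs from the 7 genes lay in a protein-coding gene or 2.5 kb beside it in 57.6% (52.2 to 62.8), 53.5% (48.7 to 58.3) and 52.5% (47.7 to 57.2) of cases, against 51.7%, 47.8% and 53.1% of all ends of these PETs. The interval lay above the background in experiments 1 and 2 but covered it in experiment 3. A single PET joined 2 members, Nampt and Alas1, in experiment 1. With the core clock genes 3 PETs were found over all distances, each seen 1 time. Those of Wee1 with Cry2 and of Lpin1 with Cry1 joined different chromosomes, and that of Alas1 with Rora lay on 1 chromosome. With a list of hepatocyte marker genes, 1 PET was found, of Lpin1 with Cps1 between chromosomes in experiment 3. The number of such PETs that random joining would give was not computed, and nothing is read from these counts.

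The other genes of each member's pathway show how the members stand among them. Of the 9 genes of heme synthesis, 8 were above the nuclear mean in every experiment. Alas1 was the highest of them and Alas2, the form of red blood cells, the lowest at 0.994, 0.426 and 0.788. Of 10 genes of NAD synthesis and use, 7 were above the mean in every experiment. Over the experiments together, Naprt, which makes NAD from nicotinic acid, was the highest of the 10 at 11.5, 2.28 and 5.59, and Nnmt, which methylates nicotinamide, was the lowest at 1.39, 0.954 and 1.32 and not among the 7. Nampt lay between them in each experiment.

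Of 13 glycogen genes, 10 were above the mean in every experiment, but Gys2 was not among these. Over the experiments together the highest was G6pc, the phosphatase that releases glucose, at 40.6, 6.03 and 6.59, although Ppp1r3b, a glycogen-targeting subunit of protein phosphatase 1, was the highest in experiment 3 at 12.9. The lowest was Phka2, a subunit of phosphorylase kinase, at 0.825, 0.589 and 0.561. Of 9 genes of phosphatidate and triglyceride synthesis, 7 were above the mean in every experiment, Lpin1 among them. Agpat2 was the highest in each experiment at 16.6, 3.39 and 9.71, and Agpat3 was the lowest over the experiments together at 1.17, 0.942 and 1.53.

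Of 4 electron donors of the P450 system, 2 were above the mean in every experiment, with Cyb5r3 the highest over the experiments together at 7.13, 1.59 and 3.35 (Cyb5a was higher in experiment 3, at 3.88) and Cyb5b the lowest at 2.55, 0.951 and 1.60. Por was the other gene above it. Of 8 genes of mitotic entry, 3 were above the mean in every experiment, and none of the 8 had a contact. Over the experiments together, Pkmyt1, a kinase related to Wee1, was the highest at 1.27, 1.20 and 2.68 and Ccnb1, a mitotic cyclin, the lowest at 1.76, 0.508 and 0.498. In experiment 1 the order differed, with Wee1 the highest of the 8 at 2.14. Usp2 was the highest of 4 ubiquitin-specific proteases in every experiment, and Usp9x was the lowest over the experiments together at 1.15, 0.474 and 0.799.

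Of 19 core clock genes, 16 were above the mean in every experiment, with medians of 2.88, 1.40 and 2.72. Over the experiments together, Dbp, a D-box factor, was the highest at 42.7, 4.94 and 8.02 and Clock the lowest at 1.09, 0.991 and 0.962. The members' median in experiment 1, 3.47, was above that of the core clock genes. In experiments 2 and 3 the members' medians of 1.26 and 1.96 lay between those of all protein-coding genes (1.17 and 1.39) and of the core clock genes. These lists, like the members, were made with earlier results of the data known, and their counts stand beside the 45.0% of all genes.

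Markers of liver cells were used to check the labelled tissue. Of 7 hepatocyte markers, 6 were above the mean in every experiment, with medians of 42.8, 5.11 and 9.08. The medians of the markers of Kupffer cells, liver endothelium, stellate cells, cholangiocytes and blood lay between 0.897 and 1.84, and those of 5 genes of other tissues at 1.07, 1.37 and 1.53. Hepatocyte markers were thus the strongest list, in experiment 1 most of all. The part of this in the members' values of that experiment was not tested. In whole liver, fewer cells of a type and less signal per cell cannot be told apart.

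For each member the protein-coding gene with the most similar 3 values was found among 13420 genes with at least 50 ends, by the distance in log2 relative density over the 3 experiments. The closest gene to Alas1 was Fgg, a fibrinogen chain, at 54.6, 6.00 and 14.7 (distance 0.164). The closest to Gys2 was Zfp112, at a distance of 0.235, the largest of the 7. For Usp2 it was Jade2, for Por Atg2a, for Wee1 Actr6, for Nampt Eif1a and for Lpin1 Nop58, at distances of 0.0250 to 0.0668. Each match rests on 3 values.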

How the data were processed

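The authors deposited 1 table of PETs in 3 experiments, with no header: the experiment, both linkers, where each end lies, and a distance in bp. Per the submitters' processing notes, Bowtie2 and the mm10 build were used. Filters, the removal of duplicates and the strand of a PET are not stated there. The 7 members and the lists were chosen with earlier results of these data known.

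Ends were counted over the RefSeq (GRCm38.p6) span of each gene and 2.5 kb either side and divided by the count expected from the mean density over 2661.30531 Mb. Mitochondrial PETs were left out, and 0 of them had an end over a member. Poisson and Clopper-Pearson 95% intervals are exact, and no test was run, since the table has 1 pool per experiment and no replicate. Named beside the members are genes at or nearest to a contact's far end, neighbours of a window, the highest and lowest gene of each list over the experiments together, and the most similar gene in log2 relative density (0.5 ends added). Other genes named were chosen after their values were seen. Counting was tested on simulated data. Python 3.11.15, numpy 2.4.6, pandas 2.3.3, scipy 1.17.1 and matplotlib 3.10.9 were used. Windows, distances, near-duplicate PETs and the scale of the density were varied.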

Additional observations from a re-analysis of the deposited data

How the results depend on the processing

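Of 258 alternative values for 40 results, 240 stayed within the counting error or 1.5 times the reported value and 18 moved. For the 12 results on the group, 10 of 69 alternatives moved, and for single genes 8 of 189 moved. Some could not move, since a gene with 0 contacts keeps 0 in any subset of the PETs. A move across the nuclear mean was not labelled apart. The 12 contacts fell to 4 without experiment 3, and were 4 to 10 when each experiment was left out in turn; without experiment 3, Usp2 had 1, Por 0 and Alas1 2, and without experiment 2 Lpin1 had 0. Contacts of 8 to 500 kb left Lpin1 with 0, and a limit of 2 Mb gave Nampt 1. Relative to the median gene instead of the nuclear mean, the median in experiment 3 was 1.42 (1.96 as reported). Over the 5 starts together, the density in experiments 1 to 3 was 76.2, 12.0 and 27.3 with 500 bp either side of the start, and 27.4, 4.88 and 8.95 with 2.5 kb; the cause was not tested. Without Alas1, chosen after seeing the data, the share of ends in PETs of at most 8 kb was 42.3% in experiment 1 and 17.1% in experiment 3. With 5 kb either side, Alas1 was at 41.7 in experiment 1 and 12.8 in experiment 3. Dropping PETs that share a read-1 position removed 20.6% of experiment 1, 0.584% of experiment 2 and 4.69% of experiment 3 and left 11 contacts. No paired analysis was possible because the table's columns carry no library or replicate number. The members had 79 to 662 ends each, and each contact rests on 1 PET.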
